A study of Mus musculus with 2 samples.

Results

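The enzymes described here attach a polar group to drugs, steroids, bile acids and reactive products of metabolism, and comprise the glutathione transferases, the UDP-glucuronosyltransferases and the sulfotransferases. Members were all features whose symbol starts with Gsta, Gstk, Gstm, Gsto, Gstp, Gstt, Gstz, Mgst, Ugt1a, Ugt2a, Ugt2b, Ugt3a or Sult followed by a digit, which gave 67 of the 32287 features counted. The rule reads symbols and no measured value, but these families were picked for description with earlier results of the same data known. Of the 67, 25 were glutathione transferases, 21 glucuronosyltransferases and 21 sulfotransferases. Levels are given for the 33 members with at least 20 UMIs (unique molecular identifiers, each standing for 1 captured transcript) over both libraries, against 11623 features in all that reach that number. A further 14 members had 1 to 19 UMIs and 20 had none. The study profiled single barcodes of liver from wild-type C57BL/6J mice given an adeno-associated virus (AAV) at an age of 4 weeks and, 3 weeks later, concanavalin A, a plant lectin that causes T cell driven hepatitis, at 15 mg/kg by the intravenous route, with liver collected after 6 hours. One virus was labelled scramble and the other shBicd2, a short hairpin against the dynein adaptor Bicd2, and both groups received concanavalin A, so no untreated liver was measured. Each group is 1 library (n = 1), how many mice went into each the sources used here do not give, and no test between groups was possible.

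Glutathione transferases join glutathione to electrophiles, glucuronosyltransferases transfer glucuronic acid from UDP-glucuronate, and sulfotransferases transfer sulfate from the donor PAPS. The liver is the main site of all these reactions, and within its lobules several glutathione transferases are known to be higher near the central vein. The soluble glutathione transferases are named by class (alpha, kappa, mu, omega, pi, theta and zeta), while the microsomal ones are membrane proteins of a separate fold. In mouse liver several sulfotransferase, Ugt2b and pi class genes are known to differ between the sexes.

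After filtering, the scramble-labelled library held 2729 barcodes with 4892085 UMIs and the shBicd2-labelled library 2941 barcodes with 5417929 UMIs, and 3 barcode sequences occurred in both. Levels are in CPM, the UMIs of a gene scaled to the same total in every library or set of barcodes. Bicd2 itself had 80 and 107 UMIs, or 16.4 and 19.7 CPM, a ratio of 1.21 (0.896 to 1.63), so its RNA does not bear out the label, and every direction below is that of the library carrying the shBicd2 label (the shBicd2-labelled library) over the one carrying the scramble label. EGFP, present as a feature in the count tables, had 339 and 4842 UMIs. Clustering without the members gave 14 clusters, of which cluster 7 (249 and 206 barcodes) was hepatocyte-like by 7 of 9 detected markers and 8 clusters with 4667 barcodes stayed unnamed and are called the main population. Cluster 7 also had 4 of 9 erythroid markers raised. That is under the 50% at which a cluster was named mixed, a cut set after the data were seen. The hepatocyte markers summed to 36444 CPM in cluster 7 and 10184 CPM in the main population, while the remaining clusters, of blood, stromal, mesothelial and endothelial character, held 6100 to 10431 CPM of the same markers. No unnamed cluster had more than 1 of the 9 hepatocyte markers raised. A marker counted as raised against all other kept barcodes, which are mostly the main population itself. The rule therefore cannot decide a cell type for the main population, and none is given to it. Free hepatocyte RNA can give such marker levels, and its part in the main population (1691 CPM for all members together) and in the other clusters (at most 1631 CPM) was not tested; the other clusters are not described further. Most of the main population separated by library: clusters 1, 5 and 6 held 1178, 549 and 538 barcodes of the shBicd2-labelled library against 3, 5 and 9 of the other, and clusters 2, 4 and 10 held 793, 605 and 125 barcodes of the scramble-labelled library against 13, 1 and 0. Cluster 3 (660 and 113 barcodes) and cluster 7 were the 2 clusters that both libraries filled with over 100 barcodes. The median mitochondrial share of UMIs was 0.187% and 0.359% over the libraries, 5.96% in cluster 7 and 0.13% to 0.313% in the clusters of the main population.

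Over all kept barcodes, conjugation enzyme RNA was on the whole higher in the shBicd2-labelled library, and the enzyme classes differed in direction. In cluster 3 all members together were lower, as given below. All members together made up 7895 UMIs, or 1614 CPM, in the scramble-labelled library and 11000 UMIs, or 2030.3 CPM, in the shBicd2-labelled library, a ratio of 1.26 (1.22 to 1.3), where the bracket is the exact 95% interval for counting error only. Glutathione transferases summed to 849 and 1461 CPM, a ratio of 1.72 (1.66 to 1.79), glucuronosyltransferases to 218 and 264 CPM, a ratio of 1.21 (1.12 to 1.31), and sulfotransferases to 547 and 306 CPM, a ratio of 0.559 (0.525 to 0.594). Sult1a1 carried the direction of the sulfotransferases, since the other genes of that class summed to 317 and 439 UMIs, a ratio of 1.25 (1.08 to 1.45). The glucuronosyltransferase direction turned with the mitochondrial share of the barcodes, at 1.46 (1.29 to 1.66) under 0.2% and 0.774 (0.656 to 0.912) at 1% or more. Glutathione transferases took 52.6% of member UMIs in the scramble-labelled library and 72.0% in the shBicd2-labelled library, and sulfotransferases 33.9% and 15.1%. A member is called higher or lower where its ratio is at least 1.5-fold from equality, a rule of size and not a test. By it 20 of the 33 members were higher and 2 lower, where over all 11623 features 24.3% were higher and 10.8% lower. The median log2 ratio of the members was 0.92, and that of all features was 0.14. Of the 33 members 8 had fewer than 20 UMIs in the scramble-labelled library, 7 of them among the 20 higher ones, so that their passing the 20-UMI limit already depended on the shBicd2-labelled library. By class, 14 of 16 glutathione transferases, 4 of 12 glucuronosyltransferases and 2 of 5 sulfotransferases were higher, while 1 glucuronosyltransferase and 1 sulfotransferase were lower.

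**Figure D1:**
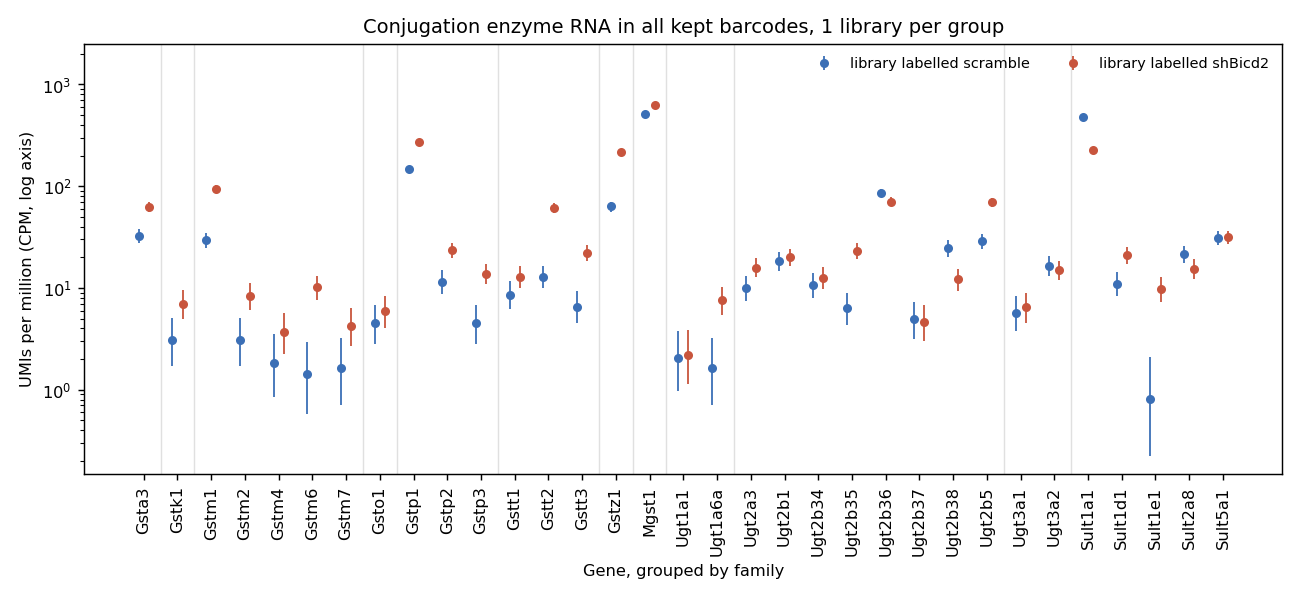
Level of each of the 33 measured members in the scramble-labelled library (blue) and the shBicd2-labelled library (red), in CPM on a log axis, grouped by family; points are single libraries and bars are exact 95% Poisson intervals. Gstz1, Gstt2 and Gstm1 are among the members with clearly separate intervals and the red point above, while Sult1a1 (482 and 225 CPM) has the red point below.

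The membrane-bound enzyme Mgst1, which sits in the endoplasmic reticulum and the outer mitochondrial membrane, was the member with the most UMIs. Mgst1 had 2511 UMIs, or 513 CPM (493 to 534), in the scramble-labelled library, against 3437 UMIs, or 634 CPM (613 to 656), in the shBicd2-labelled one. Its ratio of 1.24 (1.17 to 1.3) stayed under 1.5-fold. Among the soluble classes the pi enzyme Gstp1 had 718 UMIs, or 147 CPM (136 to 158), in the scramble-labelled library, against 1465 UMIs, or 270.4 CPM (257 to 285), in the shBicd2-labelled one, a ratio of 1.84 (1.68 to 2.02). Its neighbour Gstp2 had 56 and 127 UMIs, or 11.4 and 23.4 CPM, a ratio of 2.05 (1.48 to 2.86), and Gstp3 had 22 and 75 UMIs, or 4.5 and 13.8 CPM, a ratio of 3.08 (1.89 to 5.2). All 3 pi genes were thus higher in the shBicd2-labelled library, and Gstp1 held most of the class in both libraries, 90.2% (87.9% to 92.2%) and 87.9% (86.2% to 89.4%) of its UMIs. Gstp1 and Gstp2 share 72.3% of the 60-base windows in the last 500 bases of their transcripts, so the division of UMIs between them is uncertain.

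Gstz1, which also acts as maleylacetoacetate isomerase in tyrosine breakdown, had 309 UMIs, or 63.2 CPM (56.3 to 70.6), in the scramble-labelled library, against 1188 UMIs, or 219 CPM (207 to 232), in the shBicd2-labelled one. Its ratio was 3.47 (3.06 to 3.95). The theta enzymes lie side by side on chromosome 10, and Gstt2 had the higher ratio of the 3. Gstt2 had 63 and 330 UMIs, or 12.9 and 60.9 CPM, a ratio of 4.73 (3.6 to 6.3). Gstt3 had 32 and 119 UMIs, or 6.54 and 22 CPM, a ratio of 3.36 (2.26 to 5.13), and Gstt1 42 and 70 UMIs, or 8.59 and 12.9 CPM, a ratio of 1.5 (1.01 to 2.26), whose point value only just passes 1.5-fold. The make-up of the theta class differed accordingly: Gstt1 was 30.7% (23.1% to 39.1%) and 13.5% (10.7% to 16.7%) of its UMIs, and Gstt2 46% (37.4% to 54.7%) and 63.6% (59.3% to 67.7%). Of the mu class, encoded in 1 block on chromosome 3, Gstm1 had 144 UMIs, or 29.4 CPM (24.8 to 34.7), in the scramble-labelled library, against 508 UMIs, or 93.8 CPM (85.8 to 102), in the shBicd2-labelled one, a ratio of 3.19 (2.64 to 3.86). Gstm1 was 75.4% (68.7% to 81.3%) and 76.3% (72.9% to 79.5%) of mu class UMIs, so its dominance in the class was alike in both libraries within counting error. Gstm6 had 7 and 55 UMIs, or 1.43 and 10.2 CPM, a ratio of 7.09 (3.22 to 18.5), resting on few UMIs in the scramble-labelled library. Gsta3, the alpha class enzyme known for detoxifying activated aflatoxin in mice, had 158 UMIs, or 32.3 CPM (27.5 to 37.7), in the scramble-labelled library, against 340 UMIs, or 62.8 CPM (56.3 to 69.8), in the shBicd2-labelled one, a ratio of 1.94 (1.6 to 2.36). The 5 glutathione transferases with 20 to 99 UMIs that are not named above ranged from a ratio of 1.31 to 2.71. Of these 4 were higher, where 24.3% of all features were. Those 4 had under 20 UMIs each in the scramble-labelled library. Their passing the 20-UMI limit therefore depended on the library where they were higher, and their count is no support for a direction.

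To show the sequence at members' start sites, RefSeq promoters (GRCm38.p6, 250 bases before to 50 bases after each start) were searched on both strands for TGACNNNGC, the core of the antioxidant response element. Of the 67 members 59 had an entry, and 4 of them held a match (Gsta3, Gstm5, Gstm7 and Mgst1), 3 of the 31 measured members with an entry, or 9.68%, and 2 of the 19 higher members with an entry. Counted by promoter, 3 of the 40 windows of measured members held it, or 7.5%, against 12.4% of all 32851 promoters of the same length, so the share in the members' windows was not above that of all windows. The core of the xenobiotic response element, GCGTG, was in 5 of the 40 windows (12.5%) and in 32.4% of all promoters. The 3 measured members with the antioxidant element core are printed with the match in capitals, beside Sult1a1, the most abundant lower member, whose window holds neither motif. They lie at chr1:21240335-21240634 (plus strand), chr3:107931565-107931864 (minus strand), chr6:138140277-138140576 (plus strand, match on the opposite strand) and chr7:126676369-126676668 (minus strand), and each is written 5′ to 3′ along the gene.
Gsta3: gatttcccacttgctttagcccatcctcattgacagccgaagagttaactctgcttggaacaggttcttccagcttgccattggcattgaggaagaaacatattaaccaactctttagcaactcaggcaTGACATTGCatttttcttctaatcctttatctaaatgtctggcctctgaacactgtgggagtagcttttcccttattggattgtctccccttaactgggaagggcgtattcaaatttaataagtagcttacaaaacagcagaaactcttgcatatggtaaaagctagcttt
Gstm7: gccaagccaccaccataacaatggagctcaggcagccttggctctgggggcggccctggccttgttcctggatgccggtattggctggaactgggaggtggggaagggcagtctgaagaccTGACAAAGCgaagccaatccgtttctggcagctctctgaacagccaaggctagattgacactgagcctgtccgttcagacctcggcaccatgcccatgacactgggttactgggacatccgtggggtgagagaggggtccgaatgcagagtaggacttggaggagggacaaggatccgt
Mgst1: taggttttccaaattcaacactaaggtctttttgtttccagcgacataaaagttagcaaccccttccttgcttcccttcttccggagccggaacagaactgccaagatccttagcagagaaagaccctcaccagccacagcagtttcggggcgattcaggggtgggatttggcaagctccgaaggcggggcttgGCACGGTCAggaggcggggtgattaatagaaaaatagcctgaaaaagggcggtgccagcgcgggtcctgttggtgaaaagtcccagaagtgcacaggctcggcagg
Sult1a1: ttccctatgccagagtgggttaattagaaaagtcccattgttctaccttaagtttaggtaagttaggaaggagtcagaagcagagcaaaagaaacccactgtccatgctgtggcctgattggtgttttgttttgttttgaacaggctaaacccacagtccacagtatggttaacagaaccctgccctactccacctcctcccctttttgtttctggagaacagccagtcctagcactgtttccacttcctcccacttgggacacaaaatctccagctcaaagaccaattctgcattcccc
The matches begin 121, 129 and 56 bases before the start of Gsta3, Gstm7 and Mgst1. Mgst1 and Gstm7 each have a second listed promoter without a match. A match describes letters only, and whether any factor binds there was not measured.

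Glucuronosyltransferases had smaller and mixed differences. The Ugt2 genes lie together on chromosome 5, between 86889767 and 87424203 for those named here, and glucuronidate steroids, bile acids and drugs. Ugt2b36 had the most UMIs of the class, 419 and 381 UMIs, or 85.6 and 70.3 CPM, a ratio of 0.821 (0.713 to 0.946). Ugt2b5, by contrast, had 141 UMIs, or 28.8 CPM (24.3 to 34), in the scramble-labelled library, against 378 UMIs, or 69.8 CPM (62.9 to 77.2), in the shBicd2-labelled one, a ratio of 2.42 (1.99 to 2.96). Ugt2b36 was thus 45.2% (42% to 48.5%) and 30.8% (28.2% to 33.4%) of Ugt2 UMIs and Ugt2b5 15.2% (13% to 17.7%) and 30.5% (28% to 33.2%), so that both genes held like shares in the shBicd2-labelled library. Ugt2b35 had 31 and 126 UMIs, or 6.34 and 23.3 CPM, a ratio of 3.67 (2.46 to 5.63), and Ugt2a3 49 and 86 UMIs, or 10 and 15.9 CPM, a ratio of 1.58 (1.1 to 2.3). In the other direction Ugt2b38 had 120 and 66 UMIs, or 24.5 and 12.2 CPM, a ratio of 0.497 (0.362 to 0.676). Ratios of Ugt2b1, at 1.09 (0.82 to 1.46), and Ugt2b34, at 1.18 (0.811 to 1.73), had intervals that include 1. Ugt3a2, of a family that uses sugars other than glucuronic acid, had 81 UMIs in each library, a ratio of 0.903 (0.655 to 1.24). The Ugt1a genes, among which Ugt1a1 conjugates bilirubin, summed to 32 and 73 UMIs. Of these only Ugt1a6a, a phenol-conjugating form, is named singly, with 8 and 41 UMIs, or 1.64 and 7.57 CPM, a ratio of 4.63 (2.14 to 11.4). The 3 glucuronosyltransferases with 20 to 99 UMIs that are not named singly had ratios from 0.941 to 1.13. All 9 Ugt1a genes overlap on chromosome 1 and share exons, and 7 of the 9 have identical transcript ends, so single Ugt1a values are uncertain. Reads that fit more than 1 gene may not be counted, so the Ugt1a sum is uncertain too. Ugt1a6a shares exons with the others, but no 60-base window in the last 500 bases of its longest transcript.

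Among sulfotransferases was the lower member with the most UMIs. Sult1a1, the phenol sulfotransferase, had 2360 UMIs, or 482 CPM (463 to 502), in the scramble-labelled library, against 1218 UMIs, or 225 CPM (212 to 238), in the shBicd2-labelled one. Its ratio was 0.466 (0.435 to 0.50), and it made up 88.2% (86.9% to 89.4%) and 73.5% (71.3% to 75.6%) of all sulfotransferase UMIs. The other 4 measured sulfotransferases ranged from a ratio of 0.722 to 12.0. Sult1d1, which sulfates catecholamines, had 54 and 114 UMIs, or 11 and 21 CPM, a ratio of 1.91 (1.37 to 2.69). Sult1e1, the oestrogen sulfotransferase, had 4 and 53 UMIs, or 0.818 and 9.78 CPM, a ratio of 12 (4.41 to 45.5), with a wide interval because of the 4 UMIs in the scramble-labelled library. Sult2a8, a bile acid sulfotransferase of mouse liver, had 105 and 84 UMIs, or 21.5 and 15.5 CPM, a ratio of 0.722 (0.536 to 0.972), and Sult5a1 had 152 and 171 UMIs, or 31.1 and 31.6 CPM, a ratio of 1.02 (0.812 to 1.27). Sult1d1 and Sult1e1 are neighbours on chromosome 5, where Sult1d1 spans 87554645 to 87569027 and Sult1e1 spans 87575969 to 87591594, both on the minus strand. No UMI was counted for 13 of the 21 sulfotransferases, among them Sult2a1 to Sult2a7, Sult3a1 and Sult3a2, and a count of 0 allows up to 0.613 and 0.554 CPM per library for reads that could be assigned. Sult2a2, Sult2a5 and Sult2a4 share 52.2%, 39.7% and 20.2% of their transcript-end windows with another member, and reads that fit more than 1 gene may not be counted, so for these genes the bound is no limit on expression. Several of those genes are known to be female-biased, and both libraries had Y-linked RNA (Ddx3y, 979 and 935 UMIs) with 10 and 12 UMIs of Xist. Female-biased Cyp2b9, Cyp2a4, Cyp2b13, Cyp3a41a and Cyp3a44 had no UMI either, but others of the same list were present, with 108 and 272 UMIs of Cyp17a1 and 81 and 117 of Rtn4. Male-biased liver genes were mixed between the libraries: the ratio was 2.63 (2.37 to 2.93) for Cyp2d9, 2.15 (2.06 to 2.24) for Mup20, 0.51 (0.432 to 0.601) for Slco1a1 and 0.579 (0.365 to 0.908) for Elovl3.

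As a class, glutathione transferases were higher in the main population, at 1.71 (1.64 to 1.78), and in the hepatocyte-like cluster 7, at 2.3 (2.1 to 2.53), but not in cluster 3, at 0.881 (0.723 to 1.06). All members together had 1.23 (1.19 to 1.27), 1.8 (1.67 to 1.95) and 0.802 (0.691 to 0.927) in these populations, so their sum was lower in cluster 3. Sulfotransferases were below 1 in all 3, at 0.546 (0.511 to 0.583), 0.754 (0.599 to 0.945) and 0.479 (0.328 to 0.678), and the Ugt2 family had 1.3 (1.17 to 1.43), 1.21 (0.983 to 1.5) and 1.06 (0.754 to 1.45). Small families differed from these, with Ugt1a at 2 and 0 UMIs in cluster 7, and in cluster 3 the mu and zeta families stayed above 1 with intervals that include it. In the main population 20 of 33 members were higher and 2 lower (25.2% and 10.8% of 10992 features), with a median log2 ratio of 0.84 against 0.15 for all features. In cluster 7, where 16 members reached 20 UMIs, 8 were higher and 1 lower (22.8% and 40.8% of 3929 features), with a median of 0.61 against -0.29. There Gstm1 had 163 and 628 CPM in the libraries labelled scramble and shBicd2, a ratio of 3.85 (2.81 to 5.35). Gsta3 in cluster 7 had 130.3 and 398 CPM, a ratio of 3.05 (2.11 to 4.47). Gstp1 in the same cluster had 385 and 1181 CPM, a ratio of 3.07 (2.48 to 3.8), and Mgst1 1289 and 2202 CPM, a ratio of 1.71 (1.5 to 1.95), both wider apart than over all barcodes. Sult1a1 in cluster 7 was again lower, at 462 and 309.8 CPM, but with a ratio of 0.67 (0.501 to 0.89) it did not reach 1.5-fold. In cluster 3, whose leading genes are the interferon-induced Ifit1, Ifit2, Ifit3 and Rsad2, 12 members reached 20 UMIs, 4 were higher and 3 lower (14.1% and 30.5% of 6300 features), with a median of 0.05 against -0.11. Gstp1 there had a ratio of 0.843 (0.597 to 1.16) and Mgst1 of 0.718 (0.518 to 0.975), both under 1. Sult1a1 kept its direction in cluster 3, at 280.0 and 121 CPM, a ratio of 0.433 (0.282 to 0.64), as did Ugt2b5, at 2.54 (1.27 to 4.8). Since cluster 3 of the shBicd2-labelled library holds 113 barcodes, most single members there had under 20 UMIs.

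**Figure D2:**
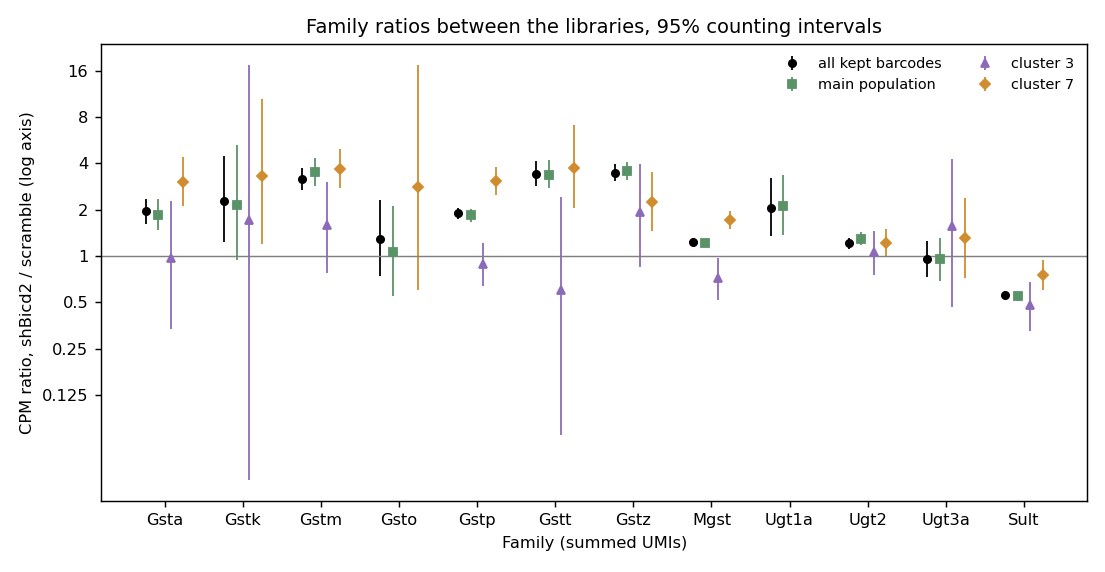
Ratio of summed CPM, shBicd2-labelled library over scramble-labelled library, for 12 families on a log axis, in all kept barcodes (black), the main population (green), cluster 3 (purple) and the hepatocyte-like cluster 7 (orange), with exact 95% counting intervals; families without a UMI in 1 library have no point there. The kappa, mu, theta, zeta and Ugt1a families lie above 2 in all barcodes and in the main population, and the sulfotransferases lie below 1 in all 4 populations. Cluster 3 points of the alpha, pi, theta and microsomal families lie below 1, and of these only the microsomal interval excludes 1. Theta there rests on 23 and 2 UMIs.

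Within the main population, clusters of the same library differed by more than the libraries did for some members. Gstz1 reached 427 CPM (399 to 457) in cluster 1, whose leading genes include the lipid droplet genes G0s2 and Plin2, but 35.6 CPM (26.5 to 46.8) in cluster 6, led by EGFP and the heat shock genes Hspb1, Hspa1a and Hspa1b. Both of those clusters belong to the shBicd2-labelled library. Over the main population clusters of the scramble-labelled library, Gstz1 ranged from 17.7 CPM (4.83 to 45.4) in cluster 10 to 97.1 CPM (81.4 to 115) in cluster 4. Gstt2 was likewise highest in clusters 13 and 1, at 182 CPM (118 to 269) and 115 CPM (100.1 to 130.4), and at 16.7 CPM in cluster 6. The mu class took another pattern: Gstm1 had 37.7 CPM in cluster 1, 64.2 CPM in cluster 6 and 144 CPM in cluster 5, where Srxn1, a gene of the oxidative stress response, is among the leading genes. Sult1a1 ranged from 280.0 to 676 CPM over the 4 main population clusters of the scramble-labelled library and from 90.7 to 373 CPM over those 5 of the shBicd2-labelled library, so these ranges overlap. Mgst1 was lowest in clusters 3 and 6 of the shBicd2-labelled library, at 207 and 232 CPM, and highest in cluster 7, at 1289 CPM in the scramble-labelled library and 2202 CPM in the shBicd2-labelled library. Cluster 6 is also the deepest, with a median of 2381 UMIs per barcode against 1422 in cluster 1.

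**Figure D3:**
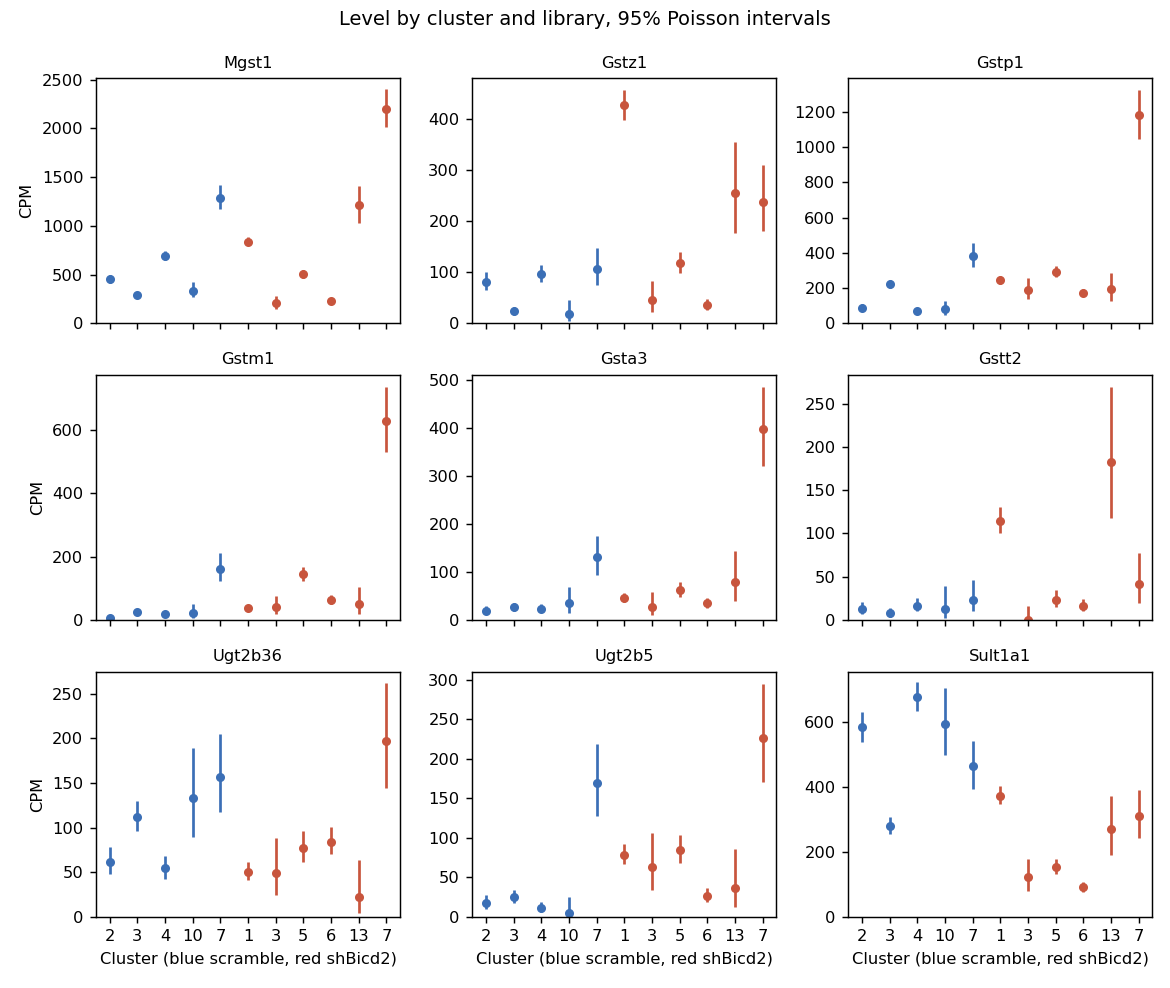
Level of 9 members (CPM, linear axes from 0) in each cluster of the main population, and in cluster 7, with at least 50 barcodes, separately for the scramble-labelled library (blue) and the shBicd2-labelled library (red); bars are exact 95% Poisson intervals. Gstz1 peaks in cluster 1 (427 CPM), Gstm1, Gsta3, Gstp1 and Mgst1 peak in cluster 7 of the shBicd2-labelled library, and Sult1a1 is higher in clusters 2, 4 and 10 of the scramble-labelled library than in any cluster of the other library.

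Most members were higher in barcodes with a high mitochondrial share, and cluster 7 held most of the member UMIs in those barcodes. For this contrast CPM were taken over nuclear-genome UMIs alone, in barcodes of the main population and cluster 7, and barcodes with a share of at least 1% (385 and 552) were set against those under 0.2% (1346 and 812). In the scramble-labelled library 15 of 21 members were higher at the high share and 1 lower (14.4% and 18.7% of 8956 features), with a median log2 ratio of 1.54 against -0.06 for all features. For the shBicd2-labelled library the counts were 17 of 28 higher and 2 lower (13.4% and 20.4% of 8966 features), with a median of 0.86 against -0.14. Cluster 7 held 243 and 206 of the high-share barcodes and none of the low-share ones, and 77.3% and 57.9% of the member UMIs at the high share. Without cluster 7, a set taken after the data were seen, 9 of 19 members were higher and 4 lower in the scramble-labelled library (14% and 30.6% of 8696 features, median 0.38 against -0.06), and 6 of 26 higher and 2 lower in the shBicd2-labelled library (10.4% and 14.4% of 8724 features, median 0.24 against -0.01). The values that follow include cluster 7 unless stated. Sult2a8 went from 6.8 and 137 CPM in the scramble-labelled library, a ratio of 20.2 (12.1 to 35.1), and from 8.7 and 63.9 CPM in the shBicd2-labelled library, a ratio of 7.35 (4.13 to 13.7). Gstm1 had ratios of 9.34 (6.25 to 14.1) and 5.46 (4.33 to 6.92), and Gsta3 of 4.19 (2.86 to 6.1) and 5.03 (3.76 to 6.77). Ugt2b34 had 13.3 (6.68 to 27.8) and 4.27 (2.09 to 9.02), and Ugt2b1 7.79 (4.68 to 13.1) and 3.55 (2.07 to 6.16). Mgst1 and Gstp1 were between 2 and 3 times as high at the high share in both libraries, with Mgst1 at 2.32 (2.09 to 2.57) and 2.03 (1.86 to 2.22). Without cluster 7, Mgst1 was at 1.09 (0.871 to 1.35) and 1.15 (1.01 to 1.29), and Gstp1 at 2.15 (1.56 to 2.92) and 1.45 (1.19 to 1.75). Gsta3 was then at 1.56 (0.606 to 3.39) and 2.22 (1.49 to 3.29), Gstm1 at 5.28 (2.66 to 9.86) and 2.58 (1.89 to 3.49), and Sult2a8 at 11.9 (5.66 to 24.4) and 3.0 (1.34 to 6.55). Gsta3, Gstm1 and Sult2a8 had only 7, 14 and 15 of these high-share UMIs in the scramble-labelled library. In the shBicd2-labelled library Sult2a8 had 13. Gstz1 was higher at the high share in the scramble-labelled library, at 1.72 (1.24 to 2.36), but not in the other, at 0.928 (0.773 to 1.11). Intervals of others included 1 in both libraries: Sult5a1 had 0.971 (0.534 to 1.66) and 1.11 (0.683 to 1.76), and Gstp2 0.991 (0.30 to 2.58) and 1.06 (0.606 to 1.78). Ugt1a6a and Sult1e1, the 2 lower members in the shBicd2-labelled library, had ratios of 0.136 (0.00328 to 0.849) and 0.194 (0.0224 to 0.769). Both ratios rest on very few high-share UMIs, and the whole Ugt1a family had 3 of them in that library.

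Across the 4 bins of mitochondrial share (under 0.2%, 0.2 to 1%, 1 to 5% and 5 to 25%), most of the increase lay in the last. Gstm1 had 14.3, 26.8, 96.7 and 245 CPM in the scramble-labelled library and 56.8, 65.1, 195 and 623 CPM in the shBicd2-labelled library. Ugt2b5 had 10.2, 26.8, 94 and 294 CPM in the scramble-labelled library, but 66, 62.2, 68.3 and 239 CPM in the shBicd2-labelled library. Its ratio between the libraries was therefore 6.47 (4.32 to 9.98) under 0.2% and 0.727 (0.443 to 1.19) at 1 to 5%. Gstz1 rose from bin to bin in the scramble-labelled library, at 59.8, 65.2, 99.4 and 114 CPM, and was nearly level in the shBicd2-labelled library, at 247, 202, 226 and 239 CPM, and its ratio between the libraries was 4.13 (3.47 to 4.94) in the lowest bin and 2.09 (1.13 to 4.12) in the highest. The Ugt2 family turned, with ratios between the libraries of 1.45 (1.27 to 1.66), 1.19 (1.0 to 1.41), 0.724 (0.56 to 0.935) and 0.733 (0.573 to 0.938) from the lowest bin to the highest. The ratio of Sult1a1 between the libraries was 0.441 (0.396 to 0.491), 0.44 (0.39 to 0.496), 0.573 (0.451 to 0.728) and 0.82 (0.576 to 1.17) from the lowest bin to the highest, so in the last bin the interval includes 1. Alb, the albumin gene, moved with the bins in the same way, from 576 to 9619.9 CPM in the scramble-labelled library and from 815 to 14321 CPM in the shBicd2-labelled library. The nuclear RNA Malat1 moved the other way, from 38666 to 17722 CPM and from 29627 to 9121 CPM, and the median depth went from 1940.0 to 898 and from 2183.5 to 920 UMIs; their part in the result was not tested. Among barcodes of at least 1% mitochondrial share, 10 of 22 members were higher and 5 lower in the shBicd2-labelled library (23.6% and 14.6% of 6702 features, median 0.38 against 0.09), and under 0.2% 17 of 29 were higher and 2 lower (25.7% and 10.8% of 9885 features, median 0.76 against 0.17).

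**Figure D4:**
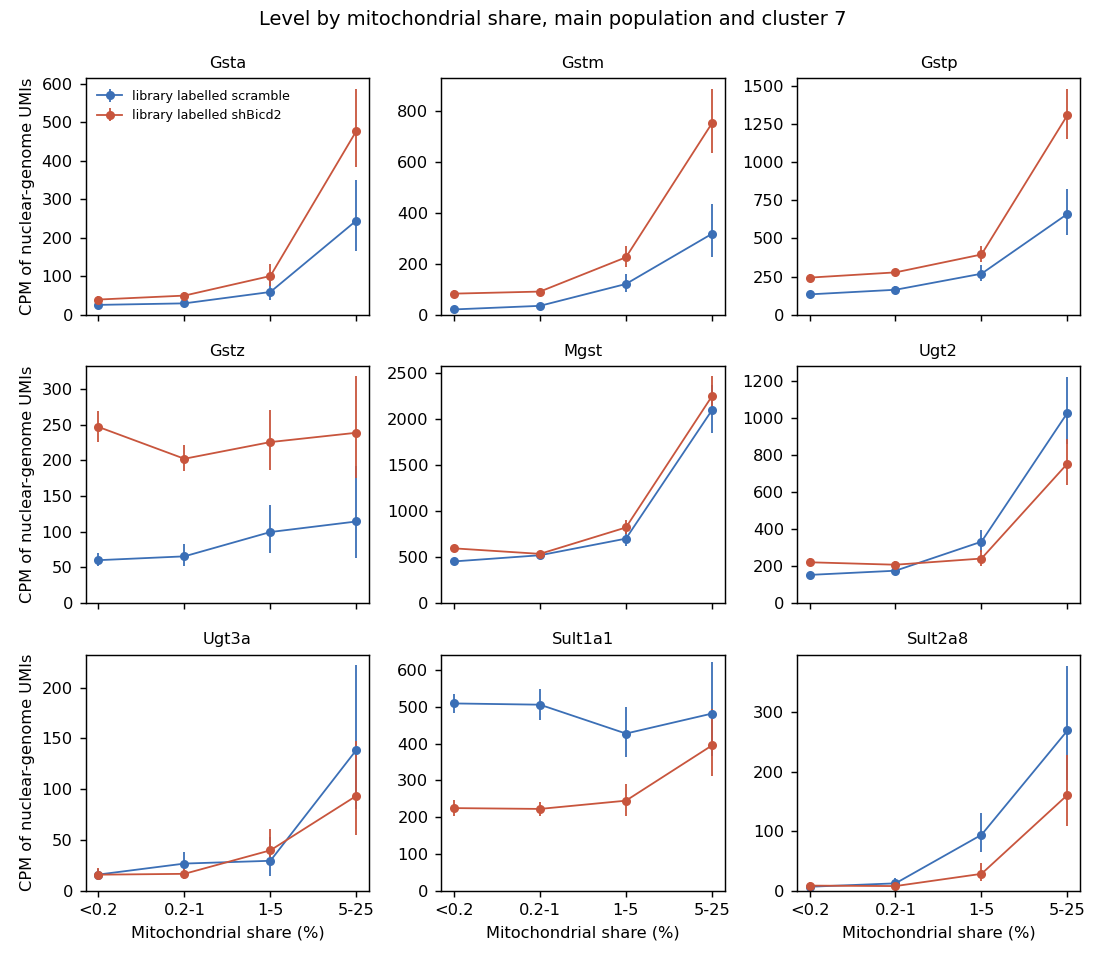
Summed level of 7 families, and of Sult1a1 and Sult2a8 (CPM over nuclear-genome UMIs, linear axes from 0), in 4 bins of mitochondrial share for the scramble-labelled library (blue) and the shBicd2-labelled library (red), main population and cluster 7; bars are exact 95% Poisson intervals. The alpha, mu, pi, Mgst, Ugt2 and Ugt3a families and Sult2a8 are highest in the last bin of both libraries. Intervals of the libraries are apart in all 4 bins for the mu and pi families, and in the lower 3 bins only for Gstz and Sult1a1.

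Barcodes were also split by whether they held at least 1 UMI of the EGFP feature; the labels do not name the construct that carried it. With the shBicd2-labelled library, 776 barcodes of the main population and cluster 7 had EGFP and 1889 had none, with median depths of 2070.5 and 1432 UMIs, and 402 of the 776 were in cluster 6. No member was higher by 1.5-fold with EGFP and 19 of 31 were lower (9.06% and 42.1% of 10143 features), with a median log2 ratio of -0.77 against -0.46 for all features. Gstt2 had 82.2 and 25.2 CPM without and with EGFP, a ratio of 0.307 (0.221 to 0.419). Gstz1 had 282 and 119 CPM, a ratio of 0.421 (0.362 to 0.487), and Ugt2b5 89.7 and 37.9 CPM, a ratio of 0.422 (0.321 to 0.548). Mgst1 had 775 and 422 CPM, a ratio of 0.544 (0.502 to 0.589), and Sult1a1 271 and 162 CPM, a ratio of 0.599 (0.524 to 0.682). Ugt2b36 was level, at 1.01 (0.808 to 1.25), and Gstm1, at 0.834 (0.687 to 1.01), was lower by less than 1.5-fold. Much of this went with cluster 6. EGFP leads that cluster and was not kept out of the clustering. Leaving the cluster out therefore also takes away barcodes rich in EGFP. Without cluster 6, 374 EGFP barcodes were left, 1 of 29 members was higher and 9 lower (7.38% and 17.4% of 9704 features), and the median was -0.29 against -0.13. Gstz1 was then at 0.775 (0.659 to 0.908), Mgst1 at 0.831 (0.756 to 0.912) and Gstm1 at 1.23 (0.97 to 1.55), while Gstt2 stayed at 0.442 (0.294 to 0.643). Within cluster 1 alone, with 162 barcodes with EGFP and 1016 without, 2 of 24 members were higher and 6 lower (9.5% and 13.5% of 8505 features), the median was -0.16 against 0.03, Gstz1 was at 1.01 (0.837 to 1.22), Mgst1 at 1.04 (0.907 to 1.18) and Gstt2 at 0.603 (0.374 to 0.931).

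In the scramble-labelled library EGFP was seen in 161 barcodes, 132 of them in cluster 3, against 2296 without it. Of 24 members 1 was higher and 11 lower (9.78% and 46.2% of 9503 features), with a median of -0.36 against -0.43 for all features, and 2 of the 11 had 0 UMIs with EGFP and would not be lower at the 3 counts that a count of 0 allows. Mgst1 was again lower with EGFP, at 0.408 (0.33 to 0.50), as was Sult1a1, at 0.642 (0.538 to 0.761). Ugt2b36 and Gstp1, in contrast, were at 1.55 (1.15 to 2.06) and 1.47 (1.17 to 1.84). Within cluster 3 of the scramble-labelled library alone 2 of 12 members were higher and 1 lower (6.59% and 19% of 5937 features), with a median of 0.06 against -0.09. There Gstp1 was at 0.96 (0.735 to 1.24), Ugt2b36 at 1.33 (0.932 to 1.86) and Mgst1 at 0.605 (0.46 to 0.786). Setting only the barcodes without EGFP against each other, 19 of 32 members were higher in the shBicd2-labelled library and 2 lower (27.9% and 9.49% of 10690 features), with a median of 1.16 against 0.22.

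**Figure D5:**
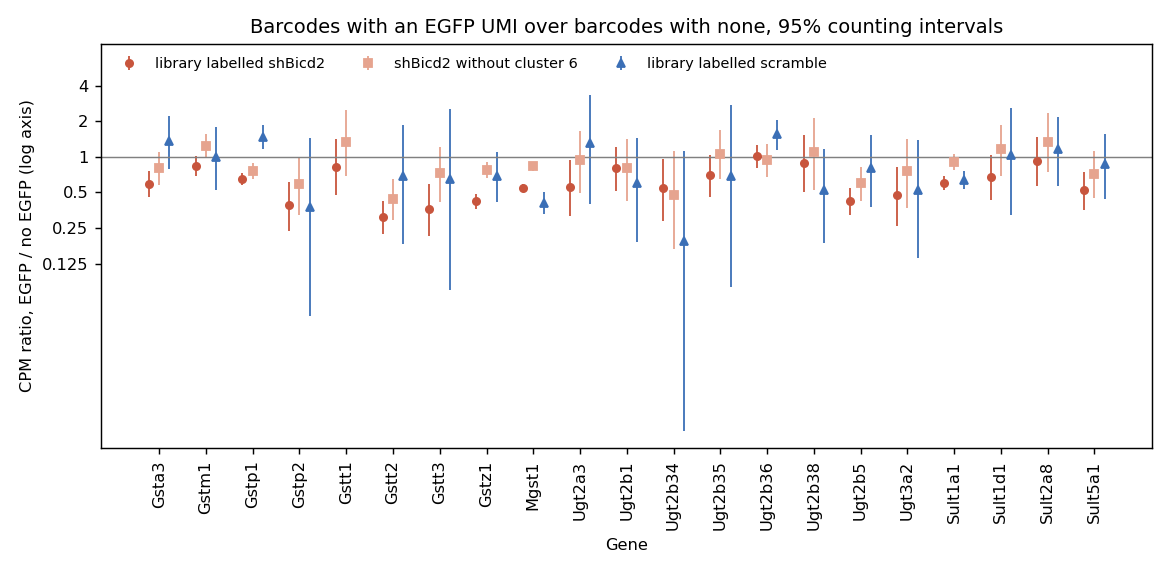
Ratio of CPM in barcodes with an EGFP UMI over barcodes with none, on a log axis, for the 21 members with at least 100 UMIs, in the shBicd2-labelled library (red circles), in the same library without cluster 6 (light squares) and in the scramble-labelled library (blue triangles); bars are exact 95% counting intervals, and Gstt1, with 0 UMIs beside EGFP in the scramble-labelled library, has no triangle. Most red circles lie below 1, and leaving out cluster 6 moves Gstz1 from 0.421 to 0.775.

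Position along the lobule was read from 28 marker genes, taking barcodes with at least 5 marker UMIs and calling those pericentral-leaning or periportal-leaning by the share of pericentral markers, which is a range cut from a score and not a cell type. Of 1669 and 1890 scored barcodes 167 and 68 were pericentral-leaning and 1346 and 1669 periportal-leaning, and 240 and 247 lay near a cut. In the scramble-labelled library 11 of 22 members were higher in pericentral-leaning barcodes and 4 lower (17.6% and 21% of 8829 features), with a median log2 ratio of 0.71 against 0.05. Of 29 members in the shBicd2-labelled library 11 were higher and 10 lower (15.4% and 31.2% of 9647 features), with a median of 0.16 against -0.02; 4 of the 10 had 0 pericentral UMIs, and the median is 0.45 with these at the 3 counts that a count of 0 allows. Gsta3 was higher in pericentral-leaning barcodes of both libraries, with 22.2 and 113 CPM (periportal and pericentral) in the scramble-labelled library and 52.3 and 158 CPM in the shBicd2-labelled library, ratios of 5.09 (3.23 to 7.89) and 3.01 (1.9 to 4.58). Gstm1 followed, at 4.25 (2.51 to 7.0) and 2.82 (1.9 to 4.06), as did Mgst1, at 2.06 (1.81 to 2.34) and 1.66 (1.4 to 1.94), and Sult2a8, at 4.35 (2.43 to 7.54) and 2.97 (1.04 to 6.97). Sult5a1 leaned to the periportal side, with 111 against 1 UMIs in the scramble-labelled library and 143 against 3 in the shBicd2-labelled library, ratios of 0.0862 (0.00216 to 0.49) and 0.477 (0.0973 to 1.42). Sult1a1 and Gstp1 had ratios within 1.5-fold in both libraries. Pericentral-leaning barcodes made up 10.0% and 3.60% of scored barcodes, so the pericentral share was lower in the shBicd2-labelled library. The scored barcodes include those of cluster 7, whose leading genes include the pericentral markers Rgn and Cyp1a2. Median mitochondrial shares were 0.209% (pericentral-leaning) and 0.156% (periportal-leaning) in the scramble-labelled library. In the shBicd2-labelled library they were 0.321% and 0.286%. The part of cluster 7 in these ratios was not tested.

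The genes that supply or complete conjugation were taken from 9 fixed lists. Of 10 genes of glutathione synthesis and recycling 7 were higher in the shBicd2-labelled library and 1 lower, with a median log2 ratio of 0.87, where over all features 24.3% were higher and 10.8% lower with a median of 0.14. Gclc and Gclm, the subunits of the enzyme that limits glutathione synthesis, had 115 and 358 CPM and 13.9 and 44.5 CPM, ratios of 3.11 (2.83 to 3.43) and 3.2 (2.44 to 4.25). Gsr, which reduces oxidised glutathione, was at 2.01 (1.63 to 2.48), Cth, which makes cysteine, at 2.4 (1.78 to 3.27), and Chac1, which breaks glutathione down, at 0.417 (0.273 to 0.626). For glucuronidation, 1 of 5 genes of UDP-glucuronate supply was higher and none lower: Ugp2, which makes UDP-glucose, had 91.2 and 266 CPM, a ratio of 2.92 (2.62 to 3.25), and Ugdh, which oxidises it, a ratio of 1.16 (1.08 to 1.23). For sulfation, 3 of 9 measured genes of PAPS supply, PAPS use and sulfate handling were higher and 2 lower. The sulfate carrier Slc26a1 was at 2.67 (1.91 to 3.79). The phosphatase Bpnt1, which clears the by-product of sulfation, was at 0.498 (0.335 to 0.731), and the protein tyrosine sulfotransferase Tpst2 at 0.41 (0.307 to 0.543). With so few genes, neither the glucuronidation nor the sulfation count of higher genes stands far from the 24.3% of all features. Of 9 mercapturate pathway genes 3 were higher and 1 lower, of 12 deconjugating esterases, sulfatases and glucuronidase 6 were higher and none lower, and of 15 other conjugating enzymes 4 were higher and 2 lower. Among them the dipeptidase Cndp2 was at 2.33 (1.57 to 3.53), the esterase Ces2a at 3.25 (2.28 to 4.74), and the epoxide hydrolases Ephx1 and Ephx2 at 2.25 (1.59 to 3.22) and 2.44 (1.88 to 3.19). Acsm3, of the other conjugating enzymes, was lower, at 0.484 (0.339 to 0.685). The 3 of that list with the most UMIs were Gnmt at 1.01 (0.944 to 1.08), Baat at 0.784 (0.725 to 0.847) and Nnmt at 0.882 (0.807 to 0.963). Higher genes of the mercapturate and other conjugating lists were not far from the 24.3% of all features.

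Receptors and regulators of these families were mixed, 3 of 20 higher and 4 lower, with a median of -0.08 (24.3% and 10.8% of all features, median 0.14). Nfe2l2, which encodes the oxidative stress factor NRF2, had 825 and 1886 UMIs, or 169 and 348 CPM, a ratio of 2.06 (1.9 to 2.24). Esr1, the oestrogen receptor, had 164 and 35 UMIs, or 33.5 and 6.46 CPM, a ratio of 0.193 (0.13 to 0.279), and Tiparp, a target and repressor of the aryl hydrocarbon receptor, a ratio of 0.578 (0.537 to 0.622). Of 15 transporters of conjugates 4 were higher and 5 lower, against the same shares of all features. The basolateral exporters Abcc3 and Abcc6 were at 3.61 (2.68 to 4.93) and 3.31 (2.43 to 4.57), the canalicular exporter Abcc2 at 1.12 (0.998 to 1.26), the bile salt exporter Abcb11 at 0.632 (0.545 to 0.733) and the uptake carrier Slco1b2 at 0.402 (0.345 to 0.467). Of 10 genes related to glutathione transferases or glycosyltransferases outside the families, 4 were higher and 1 lower. These lists share the libraries with the members and so are no independent evidence on their direction.

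Some members overlap a gene on the opposite strand, and the sources used here do not say whether reads were counted by strand. Gstz1 overlaps Pomt2, which had 79 and 74 UMIs, a ratio of 0.846, and Sult1a1 overlaps Sgf29, which had 52 and 43 UMIs, a ratio of 0.747. Both partners had far fewer UMIs than the member they overlap. Gsta3, Gsto1 and the Ugt1a genes also overlap an opposite-strand gene. In GRCm38, the members with the most UMIs lie at chromosome 6, 138140316 to 138156755, plus strand (Mgst1, ENSMUSG00000008540), chromosome 7, 126672865 to 126676432, minus strand (Sult1a1, ENSMUSG00000030711), chromosome 19, 4035407 to 4037985, minus strand (Gstp1, ENSMUSG00000060803) and chromosome 12, 87147165 to 87164723, plus strand (Gstz1, ENSMUSG00000021033), per the GENCODE annotation. The 14 members with 1 to 19 UMIs were Gsta1, Gsta2, Gsta4, Gstm3, Gstm5, Gsto2, Mgst3, Sult1b1, Sult1c2, Sult2b1, Ugt1a2, Ugt1a5, Ugt1a6b and Ugt1a7c. Besides the sulfotransferases named above, Gstt4, Mgst2, Sult1c1, Sult4a1, Sult6b1, Sult6b2, Ugt1a8, Ugt1a9, Ugt1a10, Ugt2a1 and Ugt2a2 had no UMI. The Ugt1a and Ugt2a genes among these share 100% of their transcript-end windows with another member, so the lack of UMIs is no limit on their expression.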

How the data were processed

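Single barcodes of 2 mouse liver libraries, 1 per group, were analysed from the deposited matrices, which hold UMI counts per gene and barcode (per the labels' protocols from a 10x 3′ kit, v3.1), unnormalized. Per the file headers the software was Cell Ranger 6.1.2; Cell Ranger 6.0.1, Seurat 4.0.3 and mm10 are listed per the submitters' processing notes. Dissociation, counting of intronic reads, strand and doublet removal by the authors are not given in the sources used here.

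Kept barcodes had 200 or more genes and no more than 25% mitochondrial UMIs, and the highest Scrublet scores were removed at 0.8% per 1000 barcodes (62 and 73). Without the member genes, 2000 variable genes, 30 principal components and 15 neighbours were clustered at resolution 1 (scanpy 1.11.5, scikit-learn 1.9.0, leidenalg 0.10.2), with no integration of the libraries. A cluster took a class name where at least 3 detected markers and 40% of the class's markers were raised, and the name "mixed" where another class reached 50%; both shares date from after the data were seen. For each set of barcodes UMIs were added up and divided by its total (Python 3.11.15, numpy 2.4.6, scipy 1.17.1, pandas 2.3.3). Intervals are at 95%, exact Poisson for levels, exact binomial (Clopper-Pearson) for shares and exact conditional binomial for ratios, and cover counting error only. Log2 ratios had 0.5 count added. The calculation was tested on simulated data.

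Groups came from the sample labels. Members and gene lists were chosen with earlier results of these data known. Members with at least 100 UMIs were named with values, those with 20 to 99 UMIs singly only past 3-fold with an interval clear of 1.5-fold, and of each related list the 3 genes with the most UMIs could be named, plus any past 2-fold with at least 100 UMIs. Other scalings, filters and barcode sets were tried, TMM with edgeR 4.0.16 in R 4.3.3. Coordinates come from GENCODE (GRCm38) by gene ID and promoters from a RefSeq table of GRCm38.p6.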

Additional observations from a re-analysis of the deposited data

Results flagged for a closer look

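Gstp1, the pi class glutathione transferase, lay on opposite sides of 1 in the 2 libraries when barcodes with an EGFP UMI were set against those without. The ratio was 1.47 (1.17 to 1.84) in the scramble-labelled library and 0.645 (0.572 to 0.726) in the shBicd2-labelled library, with neither interval including 1. Within cluster 3 of the scramble-labelled library, which held 132 of its 161 EGFP barcodes, the ratio was 0.960 (0.735 to 1.24). In the shBicd2-labelled library it was 0.759 (0.648 to 0.885) without cluster 6 and 0.907 (0.694 to 1.17) within cluster 1. The difference between the libraries was not tested.

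Sult1a1, the phenol sulfotransferase, had a ratio of 0.866 (0.748 to 0.998) between barcodes of high and low mitochondrial share in the scramble-labelled library and of 1.27 (1.07 to 1.5) in the shBicd2-labelled library. This difference was not tested either, and with 1 library per group neither result has a replicate check.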

How the results depend on the processing

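No paired analysis was possible because each group is 1 library, and for the same reason no replicate could be left out. Under TMM factors, size factors, totals without mitochondrial genes, Malat1 and Neat1, all deposited barcodes, at most 5% mitochondrial UMIs, no doublet removal, the mean of per-barcode CPM, the main population with cluster 7 and barcodes without EGFP, 18 to 20 members were higher and 2 or 3 lower, with medians of 0.76 to 1.19. TMM factors were 0.946 and 1.06. With only members of at least 100 UMIs, 12 of 21 were higher. Shares of all features were not taken at that limit or for the settings above, except barcodes without EGFP (27.9% higher and 9.49% lower). The other counts therefore cannot be set against a background. For the sets of barcodes that follow, the shares of all features stand in the Results. In sets of barcodes chosen after seeing the data, 4 of 12 members were higher and the median was 0.046 in cluster 3, 8 of 16 were higher and 1 lower in cluster 7, and at a mitochondrial share of 1% or more 10 of 22 were higher and 5 lower, with a median of 0.38. The median for high over low mitochondrial share in the shBicd2-labelled library was 1.81 at 5% or more against under 1%; without cluster 7, which held no barcode under 0.2%, the medians for high over low share were 0.38 and 0.24 against 1.54 and 0.86 with it. Of 279 values of 21 single members 232 moved by less than their counting interval, 45 by more, and 2, of the 14 members at least 1.5-fold apart, turned: Gstp1 to 0.843 in cluster 3 and Ugt2b5 to 0.799 at a mitochondrial share of 1% or more. Of the 7 members under 1.5-fold, 6 crossed 1 in some setting, with Mgst1 at 0.718 in cluster 3 and Ugt2b1 and Ugt2b34 at 0.619 and 0.525 at a share of 1% or more. The cause was not tested. The median with EGFP in the shBicd2-labelled library ranged from -1.48 at 3 or more EGFP UMIs to -0.16 within cluster 1. Depth limits members under 20 UMIs, for which no level is given.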
